A study of Homo sapiens with 10 samples.

Results

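The levels of 10 genes that govern the passage from G1 into S phase were compared across untreated cells of 5 human prostate cancer lines. The genes were chosen by name and read as rows of the deposited expression table, in which all 10 were found among 60642 gene symbols. They were the retinoblastoma gene RB1, the CDK inhibitor genes CDKN2A, CDKN2B and CDKN1B, the cyclin genes CCND1, CCND2, CCND3 and CCNE1, and the kinase genes CDK4 and CDK6. DU145, PC3, LNCaP, VCAP and DUCAP had each been sequenced as polyA-selected bulk RNA in 2 biological repeats, which makes 10 samples. The cells of every line had received no treatment and were collected while growing exponentially in RPMI medium with fetal bovine serum. Each line descends from 1 patient's metastasis, and DUCAP and VCAP come from metastases of the same patient, so differences between lines are differences between these cultures. DU145 is known as a line without functional RB1 protein, which transcript levels do not measure.

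In G1, the D cyclins encoded by CCND1, CCND2 and CCND3 bind the kinases CDK4 and CDK6, and the complexes phosphorylate the RB1 protein. Phosphorylated RB1 lets go of E2F transcription factors, which raise genes of DNA replication as well as CCNE1, and cyclin E with CDK2 then phosphorylates RB1 further. The INK4 proteins p16 (from CDKN2A) and p15 (from CDKN2B) bind CDK4 and CDK6 directly, whereas p27 (from CDKN1B) binds cyclin E and CDK2 complexes. Loss of RB1 function is known to accompany high p16 in many tumors and cell lines.

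The authors deposited TPM, an abundance of each gene's transcripts per length that is scaled to a fixed total per sample, so levels of different genes can be set side by side but the sequencing depth is unknown. The 37 mitochondrial genes held 35.5 and 32.1% of the TPM in the DUCAP repeats and 36.0 and 34.5% in VCAP, against 12.7 to 22.5% in the other 6 samples, which leaves less of the total to all other genes in DUCAP and VCAP. The part of this in the results was not tested separately, but 3 further scalings were run, namely rescaling of the TPM without mitochondrial genes, median-ratio scaling and quantile normalization. The line labels held against marker genes in part. The epithelial genes EPCAM, KRT8 and KRT18 summed to 432 to 2045 TPM in every sample. DUCAP and VCAP had 122 to 199 TPM of ERG and the other lines at most 0.19, while the 5 prostate genes KLK3, KLK2, HOXB13, FOLH1 and TMPRSS2 summed to 2959 to 8531 TPM in LNCaP, DUCAP and VCAP, 353 and 566 in PC3 and 0.29 and 1.13 in DU145, where these markers were near absent. Marker genes of blood cells summed to at most 1.43 TPM, those of endothelium to at most 5.46 and those of fibroblasts to at most 47.5, the last in PC3.

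The DU145 repeats stood apart from each other in the pathway under study. All 20 E2F target genes of S phase entry on a list (such as MCM2, PCNA and CDC6) were higher in DU145 repeat 2, with a median difference of 1.37 on the log2(TPM + 1) scale and sums of 843 and 2368 TPM. The same median lay between −0.24 and 0.50 in the other 4 lines. All 10 proliferation markers were also higher in DU145 repeat 2, with a median of 1.14, although 8019 of all 17520 tested genes favored repeat 2 and 8711 favored repeat 1. Among the 9 tested members, 7 were higher in DU145 repeat 2, CDK6 by a ratio of 1.93 and CDK4 by 1.88, and CDKN1B was lower, at a ratio of 0.585. The values without either DU145 sample are therefore given beside the results that rest on them. In such fits the spread came from the other 4 lines only, so their p-values and calls do not measure the spread within DU145.

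**Figure D1:**
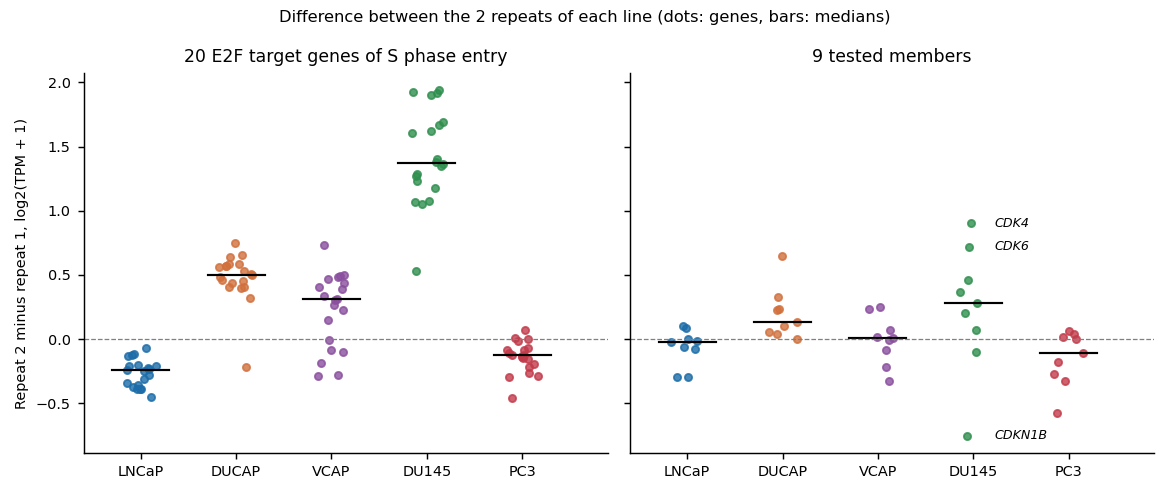
Difference between the repeats of each line, repeat 2 minus repeat 1 on the log2(TPM + 1) scale, for 20 E2F target genes of S phase entry (left) and the 9 tested members (right), with dots for genes and bars for medians. In DU145 all 20 target genes lie above 0 with a median of 1.37, and CDK4 and CDK6 lie highest among the members while CDKN1B lies lowest.

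Of the 10 genes, 9 passed the filter of at least 1 TPM in at least 2 samples and were tested with limma on log2(TPM + 1), a scale on which the change of low genes is understated. P-values were adjusted over all tested genes by the Benjamini-Hochberg method, and they speak of the spread between repeats of these 5 lines only. All 9 differed among the lines (adjusted p from limma between 4.4e-08 and 0.049), where 90.8% of all tested genes did, so that the count itself says little about the 9 genes. In pairs of lines, 62 of the 90 differences between a member's levels passed the threshold. The share of all tested genes that passed ran from 18.3% (DUCAP and VCAP) to 67.8% (DUCAP and PC3).

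The pairs differed in how many members they separated. The share of all tested genes beside each count is of calls in either direction, with all 10 samples and TPM as deposited. For pairs of lines, shares by direction or under other settings were not computed, so such counts have no matching share. LNCaP and DUCAP differed in 7 of the 9 members, all higher in LNCaP, against 60.7% of all tested genes. LNCaP and VCAP differed in 4 members, all higher in LNCaP, against 60.1%, but in 7 members when either DU145 sample was left out of the fit. LNCaP and DU145 differed in 4 members (1 higher in LNCaP) against 55.9%, but in 7 (3 higher in LNCaP) after quantile normalization and in 6 (2 higher in LNCaP) without DU145 repeat 2. LNCaP and PC3 differed in 6 (2 higher in LNCaP) against 57.7%. DUCAP and VCAP, the lines from the same patient, differed in 3 members against 18.3% of all genes. DUCAP was lower in all 8 members that differed from DU145, against 66.6%, and in all 8 that differed from PC3, against 67.8%. VCAP was lower in all 7 members that differed from DU145, against 65.4%, and in 7 of the 8 that differed from PC3, against 67.6%. DU145 and PC3 differed in 7 members (3 higher in DU145) against 49.3%.

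The counts with DUCAP and VCAP moved with the scale. The median log2 difference of all tested genes was 0.55 for LNCaP minus DUCAP, 0.38 for LNCaP minus VCAP, −0.60 for DUCAP minus DU145 and −0.62 for DUCAP minus PC3. After rescaling without mitochondrial genes, the medians of these pairs in turn were still 0.36, 0.16, −0.42 and −0.37. They were within 0.05 of zero for each of these pairs after median-ratio scaling or quantile normalization. After median-ratio scaling, DUCAP was lower than PC3 in 6 members and higher in 1, VCAP was lower than DU145 in 5, and LNCaP was higher than DUCAP in 5. The order of the lines was the same under all 3 further scalings for CDKN2A, CDKN2B, CCND3 and CDK6, and was not the same for RB1, CDKN1B, CCND1, CCNE1 and CDK4.

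**Figure D2:**
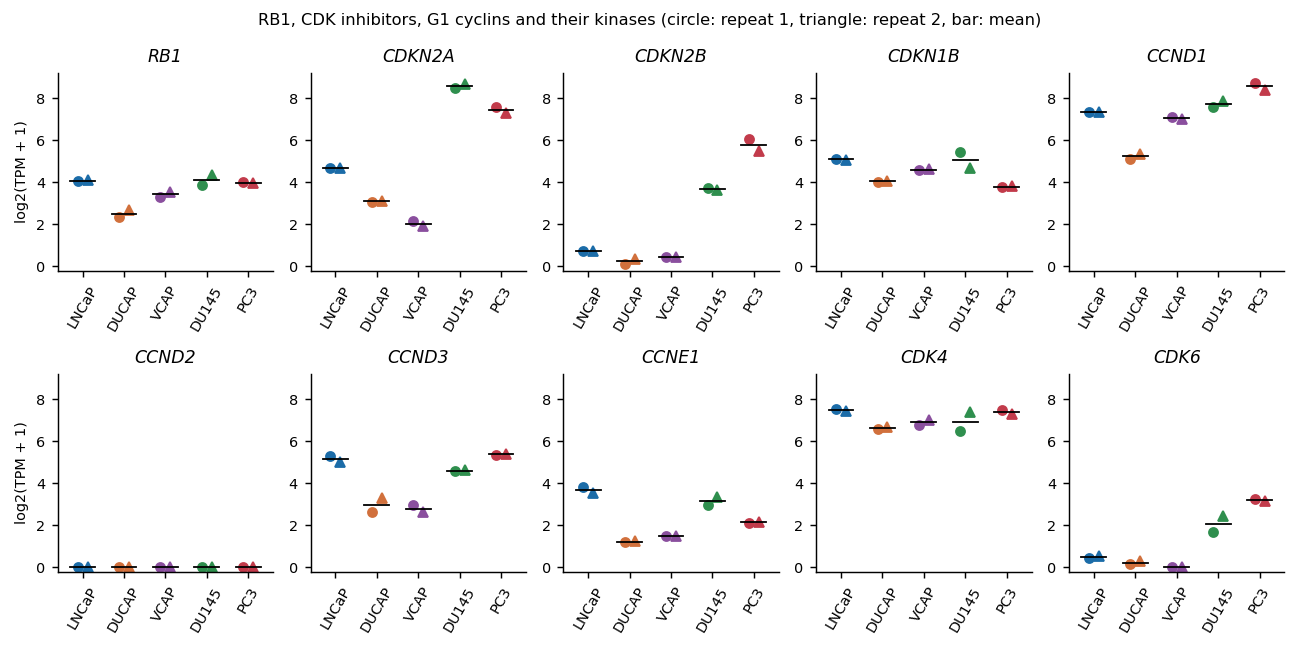
Level of each of the 10 genes in every sample as log2(TPM + 1), with circles for repeat 1, triangles for repeat 2 and bars for the mean of each line. CDKN2A, CDKN2B and CDK6 are highest in DU145 and PC3, CCND2 lies at or near 0 in all 10 samples, and the repeats are widest apart in DU145 for CDK4 and CDKN1B.

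RB1, the gene of the pocket protein that holds E2F factors in check, lies on chromosome 13 from 48303751 to 48481890 (GRCh38.p14). Its TPM in repeats 1 and 2, an order kept throughout, were 15.0 and 15.0 in PC3, 13.6 and 19.2 in DU145, 15.6 and 16.6 in LNCaP, 8.98 and 10.8 in VCAP, and 4.08 and 5.37 in DUCAP. DUCAP was lowest in both repeats, VCAP was next, and DU145 spanned the range of LNCaP and PC3. The mean was 16.4 ± 3.92 TPM in DU145 and 16.1 ± 0.700 in LNCaP (SD, n = 2), and the difference of 0.01 on the log2 scale did not pass the threshold (95% interval −0.45 to 0.47; adjusted p = 0.98 from limma). LNCaP and PC3 did not differ beyond their spread either (difference 0.10, interval −0.36 to 0.55, adjusted p = 0.72 from limma). VCAP was 2.10 times as high as DUCAP, a log2 difference of 0.93 (standard error 0.20, adjusted p = 0.014 from limma), which no longer passed without DUCAP repeat 1 (0.77, adjusted p = 0.11) or VCAP repeat 2 (0.81, adjusted p = 0.078).

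The place of VCAP within the order of RB1 levels depended on the scale. PC3 exceeded VCAP by 0.55 on the log2 scale as deposited (adjusted p = 0.036 from limma), and by 0.19 after rescaling without mitochondrial genes (adjusted p = 0.38). The call was also lost without either LNCaP or either PC3 sample or VCAP repeat 1 (adjusted p from 0.060 to 0.17). The difference was −0.16 after quantile normalization. The low level in DUCAP held under each of the 3 further scalings. Between DU145 and PC3 the RB1 difference was 0.11 (95% interval −0.35 to 0.56), and no difference from PC3 was detectable beyond that spread. TPM carry no information on the protein.

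The genes on either side of RB1 gave a local comparison. ITM2B, MED4, SUCLA2 and RCBTB2 were all detected, with ITM2B at 73.4 to 198 TPM and MED4 at 21.6 to 38.4 TPM over the 10 samples, and CYSLTR2 was listed at 0 in all of them. LPAR6 encodes a lysophosphatidic acid receptor and lies inside the RB1 span, from 48389571 to 48444669. It was listed at 0 and 0.11 TPM in the DU145 repeats, at 22.5 and 26.6 in PC3, and at 2.95 to 11.1 in the 6 other samples. Both DU145 samples lay below all 8 others, and the DU145 level was −3.26 on the log2 scale relative to the mean of the other 4 lines (adjusted p = 2.0e-06 from limma, standard error 0.18). RBL2, which encodes the related pocket protein p130, was at 44.8 and 21.9 TPM in DU145, 42.8 and 47.3 in LNCaP and 11.9 to 18.8 in the other lines. RBL1, the gene of p107, was at 3.96 to 9.97 TPM in all samples and did not pass the test among the lines (adjusted p = 0.24 from limma).

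CDKN2A lies on chromosome 9 from 21967752 to 21995324 and CDKN2B next to it from 22002903 to 22009313, with MTAP from 21802636 to 21941115 on the other side. CDKN2A has an upstream start, for the transcript of p14ARF, and a downstream start, for that of p16, and TPM per gene pools the transcripts of both. The 250 bases before each start are shown because these neighbouring genes were both far higher in DU145 and PC3 than in the other lines. They are from RefSeq (GRCh38.p14), read on the minus strand that the genes are transcribed from, with the GC box GGGCGG or its complement CCGCCC in capitals. The first covers chr9:21995325-21995574, the second chr9:21974858-21975107 and the third chr9:22009306-22009555. The third precedes a CDKN2B start at 22009305, while the gene span above reaches 22009313, so its last bases lie inside that span.
CDKN2A, p14ARF start: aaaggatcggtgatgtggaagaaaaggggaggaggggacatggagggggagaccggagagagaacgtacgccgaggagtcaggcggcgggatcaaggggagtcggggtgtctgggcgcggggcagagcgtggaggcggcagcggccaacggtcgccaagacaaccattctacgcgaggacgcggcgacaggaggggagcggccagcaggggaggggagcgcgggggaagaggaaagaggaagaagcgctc
CDKN2A, p16 start: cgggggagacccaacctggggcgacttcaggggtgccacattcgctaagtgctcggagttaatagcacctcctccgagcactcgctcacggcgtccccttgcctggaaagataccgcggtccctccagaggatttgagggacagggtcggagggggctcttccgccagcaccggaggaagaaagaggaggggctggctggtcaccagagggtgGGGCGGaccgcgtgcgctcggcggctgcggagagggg
CDKN2B: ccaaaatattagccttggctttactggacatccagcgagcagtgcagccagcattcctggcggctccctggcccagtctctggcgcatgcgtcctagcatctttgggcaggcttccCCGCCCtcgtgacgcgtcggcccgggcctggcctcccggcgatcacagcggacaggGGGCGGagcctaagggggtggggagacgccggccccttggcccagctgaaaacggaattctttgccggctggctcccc

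The p14ARF sequence held no GC box, the p16 sequence held 1 at position −37, and the CDKN2B sequence held 2, at −134 and −78 from the start. A GC box on either strand occurs in 42.6% of the 35116 promoter sequences of the table. The sequences had a GC content of 66.8, 66.8 and 66.4% and 24, 20 and 18 CpG dinucleotides, against medians of 58.0% and 11 in all promoters. The table had 12 entries for 8 of the 10 members, that of RB1 at a start inside the gene and not at its 5′ end, and none of the 12 held the E2F motifs searched, TTTCCCGC, TTTGGCGC, TTTCGCGC and TTTGCCGC on both strands, which occur in 2.79% of all promoters. The E-box CACGTG occurs in 6.34% of all promoters, and the promoter of CDK4 held 3. These matches describe letters within 250 bases and no more.

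CDKN2A was at 191 and 158 TPM in PC3, 359 and 414 in DU145, 24.9 and 25.0 in LNCaP, 3.44 and 2.82 in VCAP, and 7.53 and 7.55 in DUCAP. No line overlapped another. DU145 had 123 times the mean of VCAP and 2.21 times that of PC3, and each of the 10 pairs of lines passed the threshold. On the log2 scale DU145 exceeded PC3 by 1.15 (standard error 0.15, adjusted p = 0.00035 from limma), PC3 exceeded LNCaP by 2.75 (adjusted p = 1.3e-06), LNCaP exceeded DUCAP by 1.60 (adjusted p = 3.8e-05) and DUCAP exceeded VCAP by 1.05 (adjusted p = 0.0023). It was the only member for which all pairs of lines passed.

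CDKN2B, whose product p15 also blocks CDK4 and CDK6, was at 65.2 and 43.5 TPM in PC3, 12.2 and 11.3 in DU145, 0.67 and 0.65 in LNCaP, 0.36 and 0.37 in VCAP, and 0.09 and 0.28 in DUCAP. It was thus low in the 3 lines in which CDKN2A was low, and the order of DU145 and PC3 was turned. PC3 exceeded DU145 by 2.09 (standard error 0.20, adjusted p = 7.2e-05 from limma) and DU145 exceeded LNCaP by 2.94 (adjusted p = 6.7e-06) on the log2 scale. LNCaP, VCAP and DUCAP were all under 1 TPM, and neither LNCaP and VCAP (adjusted p = 0.27) nor VCAP and DUCAP (adjusted p = 0.56, limma) passed the threshold. LNCaP lay above DUCAP in both repeats, by 0.49 (95% interval 0.022 to 0.96, adjusted p = 0.067 from limma), a difference that passed without either PC3 sample (adjusted p = 0.023 and 0.024) and with a pseudocount of 0.1 (1.4999, adjusted p = 0.0063). CDKN2A exceeded CDKN2B by a factor of 29.5 and 36.6 in the DU145 repeats, but only 2.93 and 3.63 in PC3. The ratio was 37.1 and 38.4 in LNCaP. CDKN2A and CDKN2B have closely similar coding stretches whose reads RSEM assigns by estimate, so low levels of either in a sample with much of the other are uncertain.

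Genes around the locus varied in level. MTAP, an enzyme of methionine salvage, was at 11.9 to 32.1 TPM in all 10 samples. The antisense RNA CDKN2B-AS1, which overlaps CDKN2B, was at 2.59 and 0.96 TPM in DU145, 2.77 and 2.19 in PC3 and 0.28 to 0.57 in the other samples. The libraries keep the strand, but the strand setting of the counting was not given in the sources used here. KLHL9 was at 0.63 and 0.61 TPM in VCAP and at 4.71 to 16.8 elsewhere. ELAVL2, which encodes a neuronal RNA-binding protein, was listed at 0 in both DU145 samples and was at 0.52 to 24.3 TPM in the others, with the higher values in DUCAP. DMRTA1, on the far side of CDKN2B, was at 1.95 and 1.64 TPM in PC3, 0.80 and 0.68 in DU145 and at most 0.09 in the other samples, and CDKN2A-DT was listed at 0 in all 10.

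CDKN1B, the gene of the inhibitor p27, lies on chromosome 12 from 12717368 to 12722369. It was at 12.6 and 13.3 TPM in PC3, 42.9 and 25.1 in DU145, 34.0 and 32.5 in LNCaP, 22.9 and 24.0 in VCAP, and 15.4 and 15.9 in DUCAP. PC3 was lowest in both repeats and the 2 DU145 samples lay on either side of LNCaP. The range was narrow, with LNCaP at 2.57 times the mean of PC3 (log2 difference 1.298, standard error 0.22, adjusted p = 0.0011 from limma). None of the 4 differences between neighbours in the order LNCaP, DU145, VCAP, DUCAP and PC3 passed the threshold (adjusted p from limma between 0.094 and 0.96). PC3 stayed lowest under each of the 3 further scalings, and after quantile normalization DUCAP exceeded it by 1.14 (adjusted p = 0.0030 from limma), where the difference was 0.26 as deposited (adjusted p = 0.33). Without DU145 repeat 1 LNCaP exceeded DU145 by 0.39, and without DU145 repeat 2 the difference was −0.36 and DU145 exceeded VCAP by 0.84. VCAP exceeded DUCAP by 0.55 and DUCAP exceeded PC3 by 0.26 past the threshold when either DU145 sample was left out (adjusted p from limma of at most 0.0079 and 0.044).

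The other CDK inhibitor genes had orders of their own. CDKN1A, which encodes p21, was at 20.6 and 10.4 TPM in PC3, 43.6 and 30.2 in DU145, 195 and 168 in LNCaP, 23.7 and 34.1 in VCAP, and 2.98 and 4.22 in DUCAP. CDKN2C, which encodes the INK4 protein p18, was at 61.8 and 74.6 TPM in PC3, 33.3 and 34.9 in DU145 and 3.99 to 18.6 in the other samples. Like CDKN2A and CDKN2B it was highest in PC3 and DU145, while CDKN2D, which encodes the fourth INK4 protein p19, was lowest in DU145 at 5.10 and 6.83 TPM, against 8.24 to 15.6 in the other 8 samples. CDKN1C, which encodes p57, was at 11.1 TPM in DU145 repeat 1 and 1.82 in repeat 2. It was at 9.72 and 9.79 TPM in PC3 and 0.26 to 1.43 in the other samples.

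CCND1 encodes cyclin D1 and lies on chromosome 11 from 69641156 to 69654474. It was at 426 and 339 TPM in PC3, 189 and 230 in DU145, 165 and 163 in LNCaP, 137 and 129 in VCAP, and 34.1 and 40.0 in DUCAP. PC3 was highest and DUCAP lowest in both repeats, with no overlap between any lines. The mean was 382 ± 61.5 TPM in PC3 and 37.0 ± 4.16 in DUCAP (SD, n = 2), a ratio of 10.3 (log2 difference 3.33, standard error 0.16, adjusted p = 5.7e-07 from limma). PC3 exceeded DU145 by 0.86 (adjusted p = 0.0023) and VCAP exceeded DUCAP by 1.82 (adjusted p = 0.00018). DU145 and LNCaP (0.35, adjusted p = 0.091) and LNCaP and VCAP (0.30, adjusted p = 0.14) did not pass the threshold in limma, although their samples did not overlap. The first of these passed after quantile normalization (0.39, adjusted p = 0.031 from limma) and was 0.49 without DU145 repeat 1. The second had the opposite sign under each of the 3 further scalings.

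CCND3, the gene of cyclin D3 on chromosome 6 from 41934933 to 42050035, was at 40.1 and 41.4 TPM in PC3, 22.8 and 24.0 in DU145, 39.0 and 31.7 in LNCaP, 6.82 and 5.23 in VCAP, and 5.31 and 8.90 in DUCAP. DUCAP and VCAP overlapped and lay below the other 6 samples. The step from DU145 to DUCAP was 1.62 on the log2 scale (standard error 0.23, adjusted p = 0.00031 from limma), while PC3 and LNCaP (0.21, adjusted p = 0.47), LNCaP and DU145 (0.57, adjusted p = 0.063) and DUCAP and VCAP (0.18, adjusted p = 0.68) did not pass the threshold. The difference between LNCaP and DU145 passed with quantile normalization and with median-ratio scaling, at 0.66 and 0.58 (adjusted p = 0.019 and 0.042 from limma), and without either DUCAP sample (adjusted p = 0.028).

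CCND2, the gene of cyclin D2 on chromosome 12 from 4273762 to 4305353, was listed at 0 in 6 of the 10 samples and at 0.01 or 0.02 TPM in the remaining 4, and was not tested. Summed cyclin D transcripts were therefore those of CCND1 and CCND3. The sum was 466 and 380 TPM in PC3, 212 and 254 in DU145, 204 and 194 in LNCaP, 144 and 134 in VCAP, and 39.4 and 48.9 in DUCAP. CCND1 made up 80.9 to 96.1% of the sum in every sample. The share of CCND3 does not move with the scale between samples. It was highest in LNCaP, at 19.1 and 16.3%, and in DUCAP, at 13.5 and 18.2%, and lowest in VCAP, at 4.75 and 3.89%. DU145, at 10.7 and 9.42%, and PC3, at 8.61 and 10.9%, overlapped each other. DUCAP and VCAP overlapped in the level of CCND3 but not in this share, and CCND1 was 3.59 times as high in VCAP as in DUCAP.

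**Figure D3:**
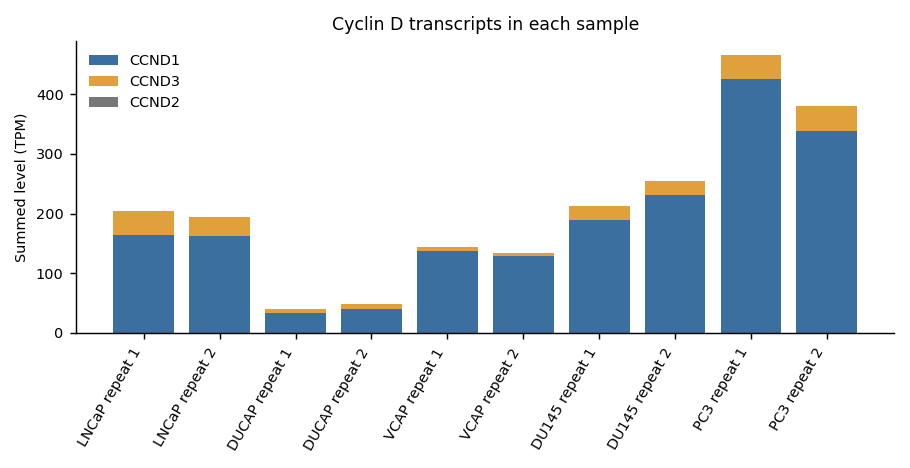
Summed TPM of CCND1, CCND3 and CCND2 in each of the 10 samples, stacked from 0, as deposited. CCND1 makes up most of every bar, CCND2 is too low to be seen, and the sums run from 39.4 and 48.9 TPM in DUCAP to 466 and 380 TPM in PC3.

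CDK4, the kinase gene on chromosome 12 from 57747727 to 57752310, varied least of the 9 tested members, with a ratio of 1.82 between its highest and lowest line mean. It was at 179 and 158 TPM in PC3, 87.9 and 165 in DU145, 184 and 174 in LNCaP, 109 and 129 in VCAP, and 94.95 and 102 in DUCAP. The 2 DU145 samples spanned most of this range on their own. The test among the lines passed narrowly (adjusted p = 0.049 from limma). It no longer passed under any of the 3 further scalings (adjusted p from 0.11 to 0.24 from limma). With a pseudocount of 0.1 (0.0503), without the filter (0.11) or with an untrended variance (0.057) it fell short too. The test also fell short without any single sample of LNCaP, DUCAP, VCAP or PC3. It passed without either DU145 sample, where the spread between the DU145 repeats drops out. The differences that passed in pairs were LNCaP above DUCAP by 0.86 (adjusted p = 0.019) and PC3 above DUCAP by 0.77 (adjusted p = 0.027, limma), and neither passed under the further scalings. DUCAP minus PC3 was −0.77 as deposited and turned positive with median-ratio scaling (0.048) and quantile normalization (0.12). Without DU145 repeat 2, PC3 exceeded DU145 by 0.93 and DU145 minus VCAP was −0.43, whereas without DU145 repeat 1 DU145 minus VCAP was 0.48. The place of DU145 in the order of CDK4 levels thus differed with the DU145 sample used.

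CDK6, on chromosome 7 from 92604921 to 92836573, encodes the other kinase that D cyclins bind. It was at 8.60 and 7.91 TPM in PC3, 2.27 and 4.38 in DU145, 0.38 and 0.48 in LNCaP, 0.01 and 0.02 in VCAP, and 0.12 and 0.23 in DUCAP. PC3 and DU145 lay above the other 6 samples, all of which were under 1 TPM. PC3 exceeded DU145 by 1.14 (standard error 0.22, adjusted p = 0.0029 from limma) and DU145 exceeded LNCaP by 1.55 (adjusted p = 0.00041) on the log2 scale, while LNCaP, DUCAP and VCAP did not differ beyond their spread with a pseudocount of 1. With a pseudocount of 0.1, LNCaP exceeded DUCAP by 0.97 and DUCAP exceeded VCAP by 1.23 (adjusted p = 0.044 and 0.046 from limma). With a pseudocount of 1, LNCaP also exceeded DUCAP past the threshold when either DU145 sample was left out (0.28, adjusted p = 0.044 and 0.040).

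Set side by side per length within each sample, CDK4 was far above CDK6 everywhere. CDK6 made up 4.58 and 4.77% of the summed TPM of both kinases in PC3, 2.52 and 2.58% in DU145, 0.206 and 0.274% in LNCaP, 0.126 and 0.225% in DUCAP, and 0.00917 and 0.0155% in VCAP. The DU145 repeats differed almost 2-fold in the level of each kinase but agreed in their ratio, with a log2 of CDK6 over CDK4 of −5.28 and −5.24. That log2 ratio was −4.38 and −4.32 in PC3, −8.92 and −8.51 in LNCaP, −9.63 and −8.79 in DUCAP, and −13.41 and −12.65 in VCAP. LNCaP and DUCAP overlapped, and the values in VCAP rest on a CDK6 level at the last decimal of the table.

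Transcripts of CDKN2A and CDKN2B were then set against those of CDK4 and CDK6, the kinases that p16 and p15 bind. The summed TPM of CDKN2A and CDKN2B over that of CDK4 and CDK6 was 4.11 and 2.51 in DU145, 1.36 and 1.22 in PC3, 0.139 and 0.146 in LNCaP, 0.0802 and 0.0767 in DUCAP, and 0.0348 and 0.0248 in VCAP. Only in DU145 and PC3 did both repeats lie above 1, and no line overlapped another. The CDKN2A part of this ratio includes transcripts of p14ARF, which does not bind these kinases. The summed cyclin D transcripts over the same kinases were 2.48 and 2.29 in PC3, 2.35 and 1.501 in DU145, 1.32 and 1.04 in VCAP, 1.11 and 1.11 in LNCaP, and 0.415 and 0.479 in DUCAP. DUCAP was lowest in this ratio, and DU145 overlapped PC3. These ratios are descriptions over 2 repeats per line, with no test.

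**Figure D4:**
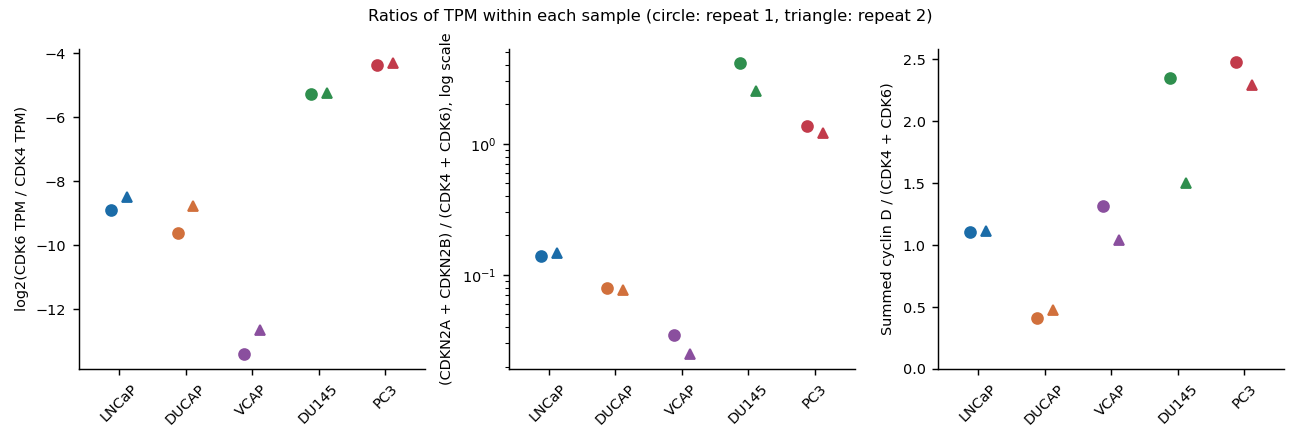
Ratios of TPM within each sample, with circles for repeat 1 and triangles for repeat 2, showing log2 of CDK6 over CDK4 (left), CDKN2A plus CDKN2B over CDK4 plus CDK6 on a log axis (middle) and summed cyclin D over CDK4 plus CDK6 (right). The middle ratio, which leaves out CDKN2C and CDKN2D, is 4.11 and 2.51 in DU145 and 1.36 and 1.22 in PC3 but at most 0.146 in the other 6 samples. The cyclin D ratio is lowest in DUCAP.

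CCNE1, the gene of cyclin E1 on chromosome 19 from 29811991 to 29824312, was at 3.38 and 3.44 TPM in PC3, 6.87 and 9.14 in DU145, 13.2 and 10.5 in LNCaP, 1.81 and 1.80 in VCAP, and 1.28 and 1.37 in DUCAP. No line overlapped another, and LNCaP had 8.94 times the mean of DUCAP. On the log2 scale, DU145 exceeded PC3 by 1.02 (standard error 0.18, adjusted p = 0.0018 from limma). LNCaP exceeded DU145 by 0.52 (adjusted p = 0.037 from limma), a difference that no longer passed with a pseudocount of 0.1 (adjusted p = 0.062), without LNCaP repeat 1 (0.37, adjusted p = 0.20), without DU145 repeat 1 (0.33, adjusted p = 0.13) or without any sample of DUCAP, VCAP or PC3 (adjusted p from 0.050 to 0.058). PC3 exceeded VCAP by 0.65 (adjusted p = 0.011 from limma), and did not pass under the 3 further scalings (0.19 to 0.40) or without PC3 repeat 2 (0.64, adjusted p = 0.051).

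CCNE2, the paralog of CCNE1, did not follow it. It was at 11.7 and 10.5 TPM in PC3, 5.20 and 18.2 in DU145, 14.3 and 12.8 in LNCaP, 15.7 and 22.96 in VCAP, and 14.6 and 20.5 in DUCAP, and did not pass the test among the lines (adjusted p = 0.34 from limma), although it did after quantile normalization (0.026), median-ratio scaling (0.028) and without DU145 repeat 2 (0.0051). The DU145 repeats alone spanned from the lowest CCNE2 value to above the median. CDK2, the partner kinase of cyclin E, was at 74.3 and 126 TPM in DU145 and at 23.7 to 67.7 in the other 8 samples, with a log2 difference of 1.06 (adjusted p = 0.0025 from limma), which was 1.44 without DU145 repeat 1 and 0.68 without repeat 2. CCNA1, a cyclin known for its role in the male germ line, was at 2.56 and 3.65 TPM in DU145, at 2.39 and 2.02 in PC3, and was listed at 0 in all 6 samples of LNCaP, DUCAP and VCAP.

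DU145 was set against the mean of the other 4 lines because of its lack of functional RB1 protein. Of the 9 members, 8 were higher and 0 lower, where 40.7% of all tested genes were higher and 22.3% lower, with a median of 0.69 for the members and 0.23 for all genes on the log2 scale. Without DU145 repeat 1 every tested member lay above 0, and without repeat 2 every one but CDK4 did, where the median of all genes was 0.24 and 0.21. CDKN2A had the widest difference, 4.27 (standard error 0.12, adjusted p = 7.2e-08 from limma), followed by CDKN2B (1.87), CDK6 (1.07) and CCNE1 (1.03), and these 4 were higher under each of the 3 further scalings. The mean of the others includes DUCAP and VCAP, which were lower than DU145 in 8 and 7 members past the threshold. Only in CDKN2A did DU145 exceed each other line past the threshold. PC3 lay above DU145 in CDKN2B (54.4 against 11.7 TPM), CDK6 (8.3 against 3.3), CCND1 and CCND3. LNCaP lay above DU145 in CCNE1 (11.8 against 8.0 TPM). CDKN1B (0.69), CCND1 (0.65), RB1 (0.59) and CCND3 (0.52) also passed. CDKN1B was at 0.31 without DU145 repeat 1 and 1.06 without repeat 2, and CDK6 at 1.43 and 0.72. CDK4 was at −0.18 (adjusted p = 0.46 from limma), which became −0.63 without DU145 repeat 2 and 0.27 without DU145 repeat 1.

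This split moved with the scale. After median-ratio scaling, 5 members were higher and 0 lower, beside 5339 genes higher and 5580 lower of all 17520. After quantile normalization 5 members were higher and 1, CDK4, was lower, beside 4960 genes higher and 6163 lower of all 17520. RB1 no longer passed in either (0.30 and 0.20, adjusted p = 0.11 and 0.29 from limma), nor did CDKN1B (0.37 and 0.35) and CCND3 (0.22 and 0.16). Over all genes, 64.6% of the calls were higher in DU145 as deposited, 48.9% after median-ratio scaling, 44.6% after quantile normalization and 59.1% after rescaling without mitochondrial genes, where the median of all genes was −0.02, −0.10 and 0.15. RB1 also fell short without DU145 repeat 2 (0.36, adjusted p = 0.095 from limma). CCND3 fell short without either DU145 sample, either PC3 sample, LNCaP repeat 2 or VCAP repeat 2 (0.48 to 0.56, adjusted p from 0.057 to 0.14 from limma). The other lines differ from DU145 in much besides RB1, and what belongs to RB1 cannot be told apart from what belongs to the line.

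Other genes of the pathway were read from lists. Of 12 genes of the RB family, E2F and DP, 4 were higher and 1 lower in DU145, shares below the 40.7% and 22.3% of all tested genes, with a median difference of 0.10 against 0.23 for all genes. After median-ratio scaling 3 were higher and 4 lower, beside 5339 genes higher and 5580 lower of all 17520. The median of this list was 0.57 without DU145 repeat 1 and −0.14 without repeat 2. Both DU145 samples lay above the other 8 for E2F4 and E2F6. E2F4, whose product acts mainly as a repressor with pocket proteins, was at 67.9 and 94.6 TPM against 23.4 to 50.3 elsewhere (1.21, adjusted p = 0.00034 from limma). E2F6, a repressor that does not bind pocket proteins, was at 18.7 and 20.4 TPM against 3.27 to 16.4 (1.12). E2F1, the activator most often linked to RB1, was at 14.1 and 32.0 TPM in DU145 and 13.5 to 31.4 elsewhere, and did not pass (adjusted p = 0.99 from limma). E2F3, another activator, was the gene that was lower, at 10.2 and 12.8 TPM against 9.25 to 31.8 (−0.54), a difference that no longer passed without DU145 repeat 1 (−0.39, adjusted p = 0.079 from limma). RBL2 passed narrowly (0.60, adjusted p = 0.044 from limma) and was at 0.10 without DU145 repeat 1 (adjusted p = 0.52) and 1.10 without repeat 2.

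Of the 20 E2F target genes of S phase entry, 7 were higher in DU145, 0 were lower and 13 did not pass, with a median of 0.52, so that the share of the list called higher was below the 40.7% of all tested genes. The list rested on which DU145 sample was read. Its median was 1.24 without DU145 repeat 1 and 0.00018 without repeat 2. None of the 7 had both DU145 samples outside the range of the other 8. The summed level of the list was 843 TPM in DU145 repeat 1, within the range of the other 8 samples (575 to 1292 TPM), and 2368 TPM in repeat 2, above it. Of 10 proliferation markers, 6 were higher and 0 lower (median 0.74), where 40.7% and 22.3% of all tested genes were. After median-ratio scaling 1 marker was higher and 0 lower, beside 5339 genes higher and 5580 lower of all 17520. The median of the markers was 1.23 without repeat 1 and 0.23 without repeat 2. AURKB, a mitotic kinase gene, was at 53.9 and 136 TPM against 25.6 to 39.4 in the other samples (1.36), a difference of 2.02 without repeat 1 and 0.70 without repeat 2. Of 6 DREAM and MuvB genes, which act with p130 and p107 to silence cell cycle genes, 2 were higher and 0 lower as deposited. These counts were 1 and 1 after median-ratio scaling and also after rescaling without mitochondrial genes. In the latter, 6434 genes were higher and 4455 lower of 17505. LIN52 was at 13.9 and 13.3 TPM against 2.38 to 6.97 (1.25, adjusted p = 0.00023 from limma).

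Of 13 genes for the turnover of cyclins and p27, 8 were higher in DU145 and 1 was lower (median 0.40), where 40.7% and 22.3% of all tested genes were. With median-ratio scaling 5 genes of the list were higher and 1 lower, beside 5339 genes higher and 5580 lower of all 17520. FBXO4, an F-box gene linked to cyclin D1 turnover, was at 17.5 and 17.9 TPM in DU145 and 1.67 to 7.78 elsewhere (1.90, adjusted p = 1.0e-05 from limma). FBXW7, the F-box gene for cyclin E, was the lower one, at 3.2 and 2.64 TPM against 4.46 to 9.02 (−0.996, adjusted p = 0.0012 from limma). Of 5 other CDK inhibitor genes, 2 were higher, CDKN2C and CDKN1C, and 1 was lower, CDKN2D (−0.79), with a median of 0.58. CDKN2C was higher in PC3 than in DU145, and CDKN1C was at 9.72 and 9.79 TPM in PC3. CDKN1C passed narrowly (1.14, adjusted p = 0.044 from limma) and was at 0.09 without DU145 repeat 1 (adjusted p = 0.49) and 2.19 without repeat 2. Of 8 further G1 and S phase cyclins, kinases and phosphatases, 4 were higher and 0 lower, with a median of 0.50, and 4 and 1 after median-ratio scaling. The list counts under other scalings and the list medians without DU145 samples were added after the data had been seen. Each of E2F4, E2F6, CDKN2C, CDKN2D, CDK2, CCNA1, FBXO4, FBXW7, LIN52, AURKB, LPAR6 and ELAVL2 kept its side of the threshold for DU145 against the other lines under every scaling and without any single sample. Most of them were named because they were called without overlap in these same data, so this is no independent support. With a 2-fold change required, 0 genes were called in the lists that hold E2F4, E2F6, CDKN2C, CDKN2D, LIN52 and AURKB.

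**Figure D5:**
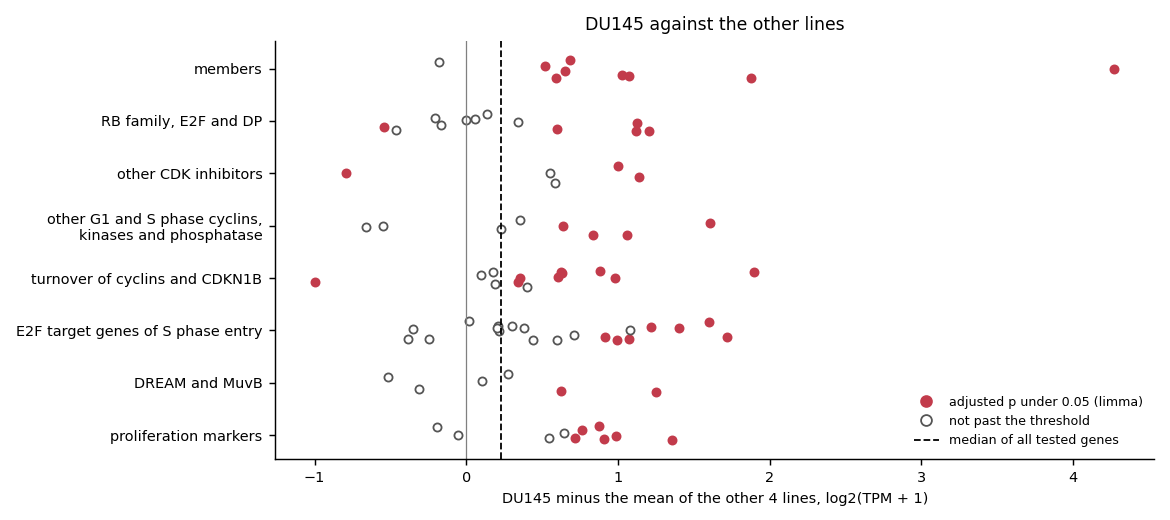
Difference between DU145 and the mean of the other 4 lines, log2(TPM + 1), for each tested gene of 8 groups, with filled dots for an adjusted p under 0.05 (limma) and a dashed line at 0.23, the median of all tested genes. CDKN2A lies farthest to the right at 4.27, and the 20 E2F target genes spread on both sides of the dashed line.

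Genes whose pattern was most like that of a member were found by Pearson's r of log2(TPM + 1) over the 10 samples among all tested genes. The points are 5 lines with 2 repeats each, so that many genes reach a high r, and the values are a description. For RB1 they were CISD2 (0.992), ZDHHC2 (0.991) and SOD1 (0.985). CDKN2A was most like TCF3, EDEM2 (both 0.995) and PSMG2 (0.993). The genes most like CCND1 were RBAK (0.988), PRKRA (0.984) and C3orf18 (0.982), and those most like CDK6 were ACTN1 (0.995), AC137932.2 and RTRAF (both 0.994). ACTN1, which encodes an actin crosslinker, was at 732 and 640 TPM in PC3, 194 and 255 in DU145 and 29.2 to 47.1 in the other samples. TCF3 was at 111 and 126 TPM in DU145, 88.7 and 79.3 in PC3 and 21.2 to 48.6 elsewhere, a much narrower range than that of CDKN2A in the same order of lines.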

How the data were processed

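Bulk RNA-seq profiles of untreated LNCaP, DUCAP, VCAP, DU145 and PC3 cells (2 biological repeats each) were analysed. Deposited labels gave each sample's line and repeat number. Each title also carries another number, not explained there, which differs from the repeat number for DU145 repeat 2 and both PC3 samples and was not used. The serum content is 5% in the methods and 5 to 10% in the labels. Per the submitters' processing notes and the methods, the authors prepared polyA-selected, stranded libraries, used FastQC 0.11.9, Trim Galore 0.6.5, STAR 2.7.2b (GRCh38) and RSEM 1.3.3, and deposited TPM of every sample in 1 table (60642 symbols, column sums 982880 to 991998). TPM keep no depth, so no counting interval was computed and precision rests on the repeats, which correlated at r = 0.984 to 0.995 across genes.

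Genes had to reach 1 TPM in 2 or more samples, which left 17520, and were tested on log2(TPM + 1) with limma 3.58.1 (R 4.3.3), with all 10 samples in the fit, a coefficient for each line, a trended prior variance and Benjamini-Hochberg adjustment at 0.05 over all genes within each comparison (F test over the lines, each pair of lines, DU145 against the mean of the others). In simulated data with 200 of 17520 genes changed by 1.5 in DU145, 59.5% were recovered by the F test, 83.5% against the other 4 lines and 73.5% against PC3, with 1.65, 2.34 and 4.55% of calls false. The changed genes had a mean above 1 on the log2 scale, and the noise was independent between genes. In the real data 90.8% of genes were called and genes moved together between the DU145 repeats, so these rates do not carry over. Named genes were all members, their neighbours on the chromosome, line markers, up to 2 changes per direction and list among called genes whose DU145 samples did not overlap the others, and 3 most alike genes for RB1, CDKN2A, CCND1 and CDK6. RBL1, RBL2, E2F1, E2F3, CCNE2, CDKN1A, CDKN1C and CDKN2C were named after their values were seen. The members, lists and tests were chosen with earlier results of these data known. Alternatives were another pseudocount, filter, scaling, variance model or adjustment, a 2-fold requirement, the repeat number as a covariate, and each sample left out. Promoters and coordinates are from RefSeq tables (GRCh38.p14), in which 21 of 22 symbols matched. Only 250 upstream bases were used, and the RB1 entry, an internal start, was searched but is not shown. Tables and figures were made in Python 3.11.15 with pandas 2.3.3, numpy 2.4.6, matplotlib 3.10.9 and scipy 1.17.1.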

Additional observations from a re-analysis of the deposited data

How the results depend on the processing

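With 2 repeats per line and no depth, small differences between lines cannot be resolved, and a sample left without its repeat was assumed to vary like the other lines. The 62 differences between members and pairs of lines fell to 38 when a 2-fold change was required, and the genes called in DU145 against the other lines fell from 11047 to 2690. Otherwise these counts stayed within 1.5 times, at 54 to 65 and 10889 to 12731 under other settings and 57 to 72 and 10227 to 10905 without 1 sample. With a replicate block, which adds the repeat number to the fit, they were 61 and 10976, and 15953 genes in place of 15913 differed among the lines. Same-numbered repeats of different lines were not paired, since r of their deviations from the line means averaged 0.00922 in the 10 pairs and ranged from −0.191 to 0.249, and of the members' calls the block ended that of CCNE1 between LNCaP and DU145 (adjusted p = 0.053, limma).

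With a pseudocount of 1 on both values, the log2 ratio of CDK6 to CDK4 was −6.98 in LNCaP, −6.40 in DUCAP, −6.88 in VCAP, −4.86 in DU145 and −4.19 in PC3, so that VCAP no longer lay below LNCaP and stayed below DU145 and PC3; its CDK6 level is far below the pseudocount.

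Differences of neighbouring lines that changed sign were at most 0.55 on the log2 scale as deposited. The largest, PC3 minus VCAP for RB1, had passed the threshold (adjusted p = 0.036, limma). After quantile normalization, RB1 was at −0.11 for DU145 minus LNCaP and −0.16 for PC3 minus VCAP, CDKN1B at −0.13 for DU145 minus VCAP, CCND1 at −0.25 for LNCaP minus VCAP, CCNE1 at −0.046 for VCAP minus DUCAP and CDK4 at −0.58 for DU145 minus VCAP (adjusted p = 0.042, limma). After median-ratio scaling, these were −0.0010 and −0.0025 for RB1, −0.078 for CDKN1B, −0.25 for CCND1 and −0.54 for CDK4. Without mitochondrial genes, CCND1 was at −0.0082 and CDK4 at −0.29. Without 1 sample, the ranges were −0.22 to 0.24 for RB1 (DU145 minus LNCaP), −0.36 to 0.39 for CDKN1B (LNCaP minus DU145), −0.15 to 0.50 for CCND3 (DUCAP minus VCAP) and −0.63 to 0.27 for CDK4 in DU145 against the other lines. For CDK4 they were −0.0019 to 0.18 between LNCaP and PC3 and −0.43 to 0.48 between DU145 and VCAP. The cause was not tested. Of 360 differences between neighbours without 1 sample, 323 kept direction and side of the threshold, as did 286 of 324 under other settings.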
